A study of Xenopus laevis with 37 samples.

Results

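The nuclear genes of the mitochondrial respiratory chain were followed through 37 RNA-seq libraries of Xenopus laevis neurula-stage explants. They were taken by name from the deposited expression matrix: complex I (nduf), complex II (sdha to sdhd), complex III (uqcr), complex IV (cox4 to cox8) and ATP synthase (atp5), with the assembly factors that share these prefixes. Of 135 rows with such a name, 133 reached 1 TPM (RSEM's length-scaled transcript level, in which all genes of a library sum to about the same total) in at least 2 libraries, among 28863 features that did so of 40271 in the matrix. The 2 rows just outside the limit were cox6a2.L, at most 0.86 TPM, and sdhc.L, at most 1.21 TPM; just inside it were cox4i2.L, ndufaf2.L and atp5s.L, which averaged 0.657, 0.759 and 0.86 TPM over all libraries. The 133 rows carried 80 gene names. X. laevis is an allotetraploid with a long (L) and a short (S) subgenome, and 53 names were present as both copies (homeologs). By class, 59 rows belonged to complex I, 7 to its assembly factors, 7 to complex II, 3 to its assembly factors, 12 to complex III, 22 to complex IV and 23 to ATP synthase. Classes follow the gene name alone. The ATP synthase class therefore includes atp5s.L and atp5sl.L, whose place in that enzyme was not checked. Subunits encoded in the mitochondrial genome were not analysed here.

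Respiratory complexes I and II pass electrons from NADH and from succinate to ubiquinone, complex III hands them to cytochrome c and complex IV to oxygen, and ATP synthase uses the resulting proton gradient to make ATP. Complex II is also succinate dehydrogenase, an enzyme of the tricarboxylic acid cycle, and is the complex made without any mitochondrially encoded subunit. Early frog embryos divide on mitochondria laid down in the egg, and the nuclear genes of the chain are transcribed widely in the embryo.

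All explants were at Nieuwkoop-Faber stage NF20. The inhibitor experiment used hindgut (HG) and foregut (FG) explants of embryos cultured between NF12 and NF20 with 60 µM BIO, an inhibitor of the kinase GSK3 that activates Wnt/β-catenin signalling, with 40 µM DMH1, an inhibitor of BMP type I receptors, or with the DMSO vehicle (6 groups of 3 libraries). Dorsal explants formed a group of 3. In a heat-shock experiment, hindgut and foregut explants of embryos with the hsp:Dkk1GFP transgene, which encodes the Wnt antagonist Dkk1, were taken after 30 min at 37 °C and return to 13 °C, or without heat (4 groups of 2 libraries). The genotype field calls every library wild type, and no heated library without the transgene was present, so heat and transgene cannot be told apart. A further 4 groups of 2 libraries held mesoderm or endoderm separated from hindgut or foregut explants. The tissue field of the hindgut mesoderm libraries says endoderm; they were grouped by title. Replicates were independent biological samples per the labels' protocol.

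Labels were checked against marker genes, summed per library. Hindgut markers (cdx, hox and evx1 genes) summed to 896 to 1497 TPM in hindgut DMSO libraries and 7.64 to 37.5 TPM in foregut DMSO libraries. Muscle markers summed to 6500 to 6941 TPM in dorsal explants. Endoderm markers separated the germ layers, at 87.3 to 118 TPM in the 4 mesoderm libraries and 2938 to 9905 TPM in the 4 endoderm libraries. Lateral plate mesoderm markers did not, since they summed to 169 to 197 TPM in hindgut mesoderm and 325 to 354 TPM in hindgut endoderm. Epidermal markers were far higher in mesoderm than in endoderm libraries, at 29531 to 49273 TPM against 1410 to 1545 TPM, so the libraries labelled mesoderm held much epidermal RNA. dkk1.L and dkk1.S together were listed at 24.4 and 29.6 TPM in heated foregut libraries against 26.1 and 34.5 TPM in unheated ones, and at 15.2 and 12.4 TPM in heated hindgut libraries against 12.9 and 21.3 TPM in unheated ones. Their sum was not higher on average in the libraries labelled heat shock. Whether reads of the transgene were counted at dkk1.L or dkk1.S is not known, so its induction cannot be judged from these rows. In foregut endoderm, replicate 1 stood apart from replicate 2, with 15182 features at 1 TPM or more, the fewest of any library.

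Respiratory chain genes were among the more abundant transcripts. The median member averaged 49.9 TPM over all libraries, against 5.004 TPM for the median feature, and 125 of 133 members lay above that feature. The highest was atp5b.S, the catalytic beta subunit of ATP synthase, at 527 TPM on average with a range of 439 to 661 TPM over the libraries. The highest members of the other complexes were uqcr11.L of complex III (383 TPM), sdhb.S, the iron-sulfur subunit of succinate dehydrogenase (379 TPM), cox6b1.L of complex IV (307 TPM) and ndufs5.L, an accessory subunit of complex I (171 TPM). The assembly factors were lower, apart from ndufaf4.L at 109 TPM.

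Together the 133 rows summed to between 7879 and 18426 TPM per library, which is 0.788% to 1.84% of all TPM. The highest sums were in foregut endoderm, whose libraries differed widely (18426 TPM in replicate 1 and 11823 TPM in replicate 2). Dorsal explants summed to 12172 ± 725 TPM, hindgut DMSO explants to 9347 ± 377 TPM and foregut DMSO explants to 8509 ± 778 TPM (SD, n = 3 each). All 18 libraries of the inhibitor experiment lay between 7879 and 10352 TPM, and the other 19 between 10458 and 18426 TPM, so the inhibitor libraries did not overlap with the rest. The labels do not say whether this follows the culture, the dissection or the preparation of the libraries, and these cannot be told apart.

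**Figure D1:**
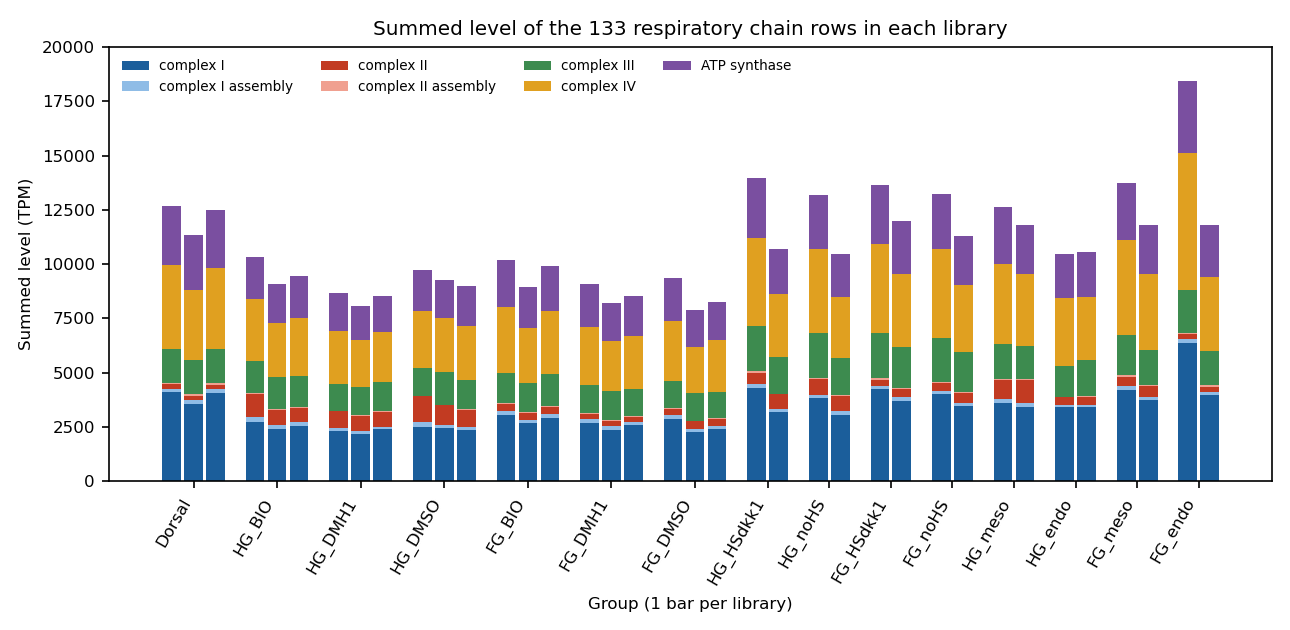
Summed TPM of the 133 respiratory chain rows (vertical axis) in each of 37 libraries (1 bar each, horizontal axis by group), stacked by complex. Inhibitor libraries reach 7879 to 10352 TPM and all others 10458 to 18426 TPM; foregut endoderm replicate 1 is the highest bar.

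The range of a member's 15 group means was 1.23 in the median on the log2(TPM + 1) scale, against 1.64 for all features. Of the members, 107 of 133 (80.5%) differed among the 15 groups by limma's F test at a Benjamini-Hochberg adjusted p below 0.05 over all features, against 73.5% of all features. The 26 that did not pass include atp5c1.L, the gamma subunit of ATP synthase, which was between 81.4 and 127 TPM in every library, and sdha.L, the flavoprotein of complex II, between 16.9 and 33.6 TPM. The smallest p belonged to sdhb.S (adjusted p = 5.2e-13), followed by uqcr11.L, sdhd.S (a membrane anchor of complex II) and atp5o.S (a stalk subunit of ATP synthase). uqcr11.L averaged 573 to 599 TPM in the 4 heat-shock groups, 370 TPM in dorsal explants, 390 to 432 TPM in the germ layers and 247 to 326 TPM in the inhibitor groups. By group means of log2(TPM + 1), foregut endoderm was highest for 54 members, from libraries that summed to 18426 TPM in replicate 1 and 11823 TPM in replicate 2. On the same scale, hindgut explants in DMH1 had the lowest mean for 39 members, hindgut endoderm for 23 and foregut DMSO explants for 19.

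**Figure D2:**
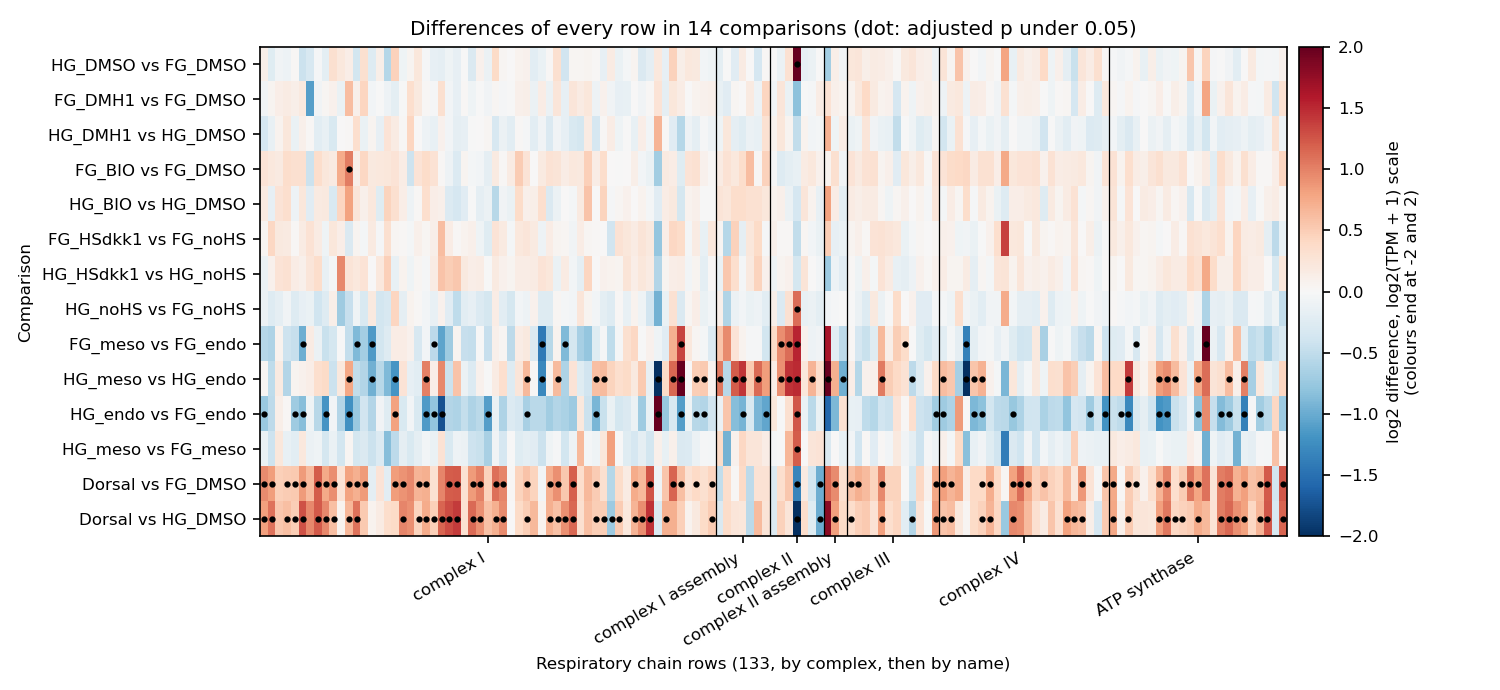
Log2 differences, on the log2(TPM + 1) scale, of the 133 respiratory chain rows (horizontal axis, ordered by complex) in 14 comparisons (vertical axis), as colour that ends at -2 and 2, with a dot where the adjusted p was below 0.05. Dots fill the dorsal comparisons (63 and 64 rows), lie mostly on blue in hindgut against foregut endoderm (32 of 35), and the single dot in hindgut against foregut DMSO, unheated and mesoderm libraries is sdhb.S.

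In hindgut against foregut explants, both in DMSO, 1 member passed the main test, which was not paired: sdhb.S. Its level was 1082, 755 and 675 TPM in hindgut DMSO libraries, against 191, 206 and 200 TPM in foregut DMSO libraries. The groups did not overlap, and the means of 838 ± 216 and 199 ± 7.20 TPM (SD, n = 3 each) stood at a ratio of 4.21. On the log2(TPM + 1) scale the difference was 2.04 (SE 0.21, limma adjusted p = 8.3e-08). Of all features, 7.47% passed the same test, and 5 members had an unadjusted p below 0.05. The median member differed by 0.02, the median feature by -0.12. Neural plate markers, at 24.2 to 93.0 TPM in hindgut and 317 to 751 TPM in foregut DMSO libraries, were lower in hindgut for 12 of 12 rows. Blood and endothelial markers, at 67.1 to 144 TPM in hindgut and 774 to 1068 TPM in foregut DMSO libraries, were lower for 6 of 14 rows. Their part in the result was not tested, and in bulk samples fewer cells of a type and less RNA per cell cannot be told apart.

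None of the other complex II rows passed. sdhb.L, its homeolog, was at 16.6, 15.5 and 17.8 TPM in hindgut DMSO libraries and at 9.5, 13.5 and 18.4 TPM in foregut DMSO libraries, which overlap. As a share of all complex II transcripts, sdhb.S made up 86.7% in hindgut DMSO and 61.3% in foregut DMSO libraries. By RefSeq gene order on assembly Xenopus_laevis_v10.1, the neighbours of sdhb.S found in the matrix were szrd1.S, padi2.S, ddi2.S and rap1gap.S. padi2.S, next to it, averaged 12.8 TPM in hindgut and 8.29 TPM in foregut DMSO libraries (adjusted p = 0.285), and szrd1.S and ddi2.S did not pass either. rap1gap.S fell, with 0.58 TPM in hindgut and 3.98 TPM in foregut DMSO libraries (log2 difference -1.65, adjusted p = 0.0044). Its homeolog rap1gap.L, a neighbour of sdhb.L, fell too, with 3.68 TPM in hindgut and 10.4 TPM in foregut DMSO libraries (-1.32, adjusted p = 0.0066). With the replicate number as a block, which pairs hindgut and foregut pieces of the same number, atp5h.L, a subunit of the ATP synthase stalk, passed as well (0.55, SE 0.17, adjusted p = 0.040), with means of 35.2 TPM in hindgut and 23.8 TPM in foregut libraries.

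The higher level of sdhb.S in hindgut was seen in the other experiments too. Unheated hindgut libraries had 578 and 572 TPM, against 237 and 295 TPM in unheated foregut libraries (log2 difference 1.12, SE 0.26, adjusted p = 0.021, with 1.39% of features passing). That call was lost when any of the 4 libraries was left out, with adjusted p of 0.233 and 0.0585 without foregut replicate 1 or 2, and 0.134 and 0.155 without the hindgut library numbered 12 or 23. Hindgut endoderm had 259 and 290 TPM against 96.9 and 137 TPM in foregut endoderm (1.24, adjusted p = 9.8e-04). Hindgut mesoderm had 682 and 881 TPM against 303 and 370 TPM in foregut mesoderm (1.21, SE 0.26, adjusted p = 0.0066), where sdhb.S was the only member of 133 to pass and 2.35% of features did. Without foregut mesoderm replicate 1 or hindgut mesoderm replicate 2 it did not pass (adjusted p = 0.140 and 0.127), and without foregut mesoderm replicate 2 or hindgut mesoderm replicate 1, 2 members did. In all 4 settings no hindgut library fell as low as a foregut library of the same setting.

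**Figure D3:**
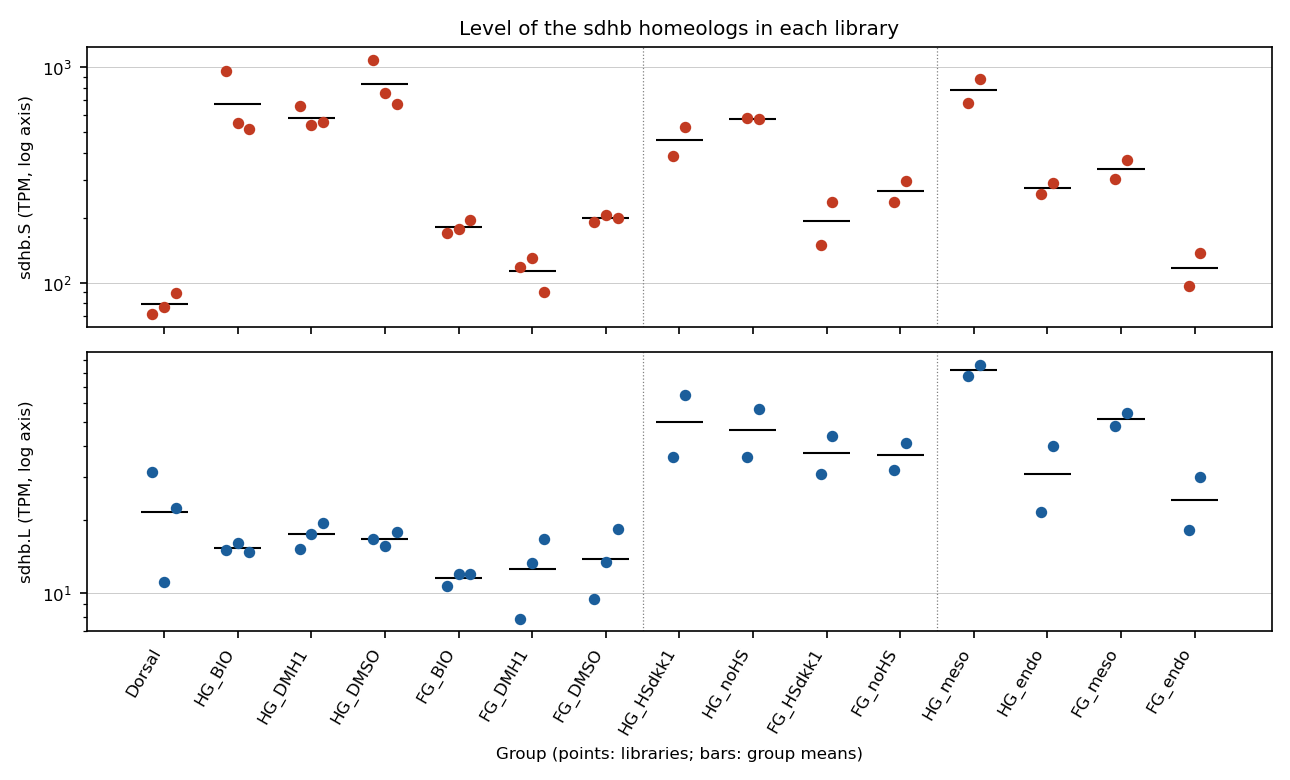
TPM of sdhb.S (upper panel) and of its homeolog sdhb.L (lower panel) in each of 37 libraries (points, vertical log axes) by group (horizontal axis), with group means as bars. sdhb.S is highest in hindgut DMSO (675 to 1082 TPM) and lowest in dorsal explants (71.7 to 89.6 TPM).

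No respiratory chain gene passed the main test, which was not paired, with DMH1. In foregut explants, 0 of 133 members passed with DMH1 against DMSO (0.738% of features did), 3 had an unadjusted p below 0.05 by limma, and the median member differed by 0.04. sdhb.S had the smallest p. It was at 118, 130 and 90.5 TPM in foregut DMH1 libraries against 191, 206 and 200 TPM in foregut DMSO libraries, with no overlap, and the difference was -0.83 (SE 0.21, adjusted p = 0.070). With the replicate block it passed (-0.83, SE 0.18, adjusted p = 0.015). In hindgut explants, 0 members passed (1.16% of features did, and 3 members had an unadjusted p below 0.05). There sdhb.S was at 657, 539 and 555 TPM with DMH1 against 1082, 755 and 675 TPM with DMSO (-0.50, adjusted p = 0.519). The groups did not overlap. The DMH1 effect did not pass a test of its difference between hindgut and foregut for any member (0 of 133, with 0.149% of features passing).

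With BIO against DMSO in foregut explants, 1 of 133 members rose and none fell, while 6.43% of features passed. The median member differed by 0.18 and the median feature by -0.08, and 113 of 133 members lay above 0, compared with 39.7% of all features. Unadjusted p was below 0.05 for 13 members. The member that passed was ndufa3.S, an accessory subunit of complex I. Its level was 22.96, 23.03 and 16.7 TPM in foregut BIO libraries against 9.54, 10.6 and 9.06 TPM in foregut DMSO libraries, with no overlap (log2 difference 1.02, SE 0.22, adjusted p = 0.0035). With the replicate block 4 members passed: ndufa3.S (1.02, adjusted p = 0.0012), cox5b.1.L, a structural subunit of complex IV (0.31, adjusted p = 0.016), ndufab1.L, the mitochondrial acyl carrier protein (0.37, adjusted p = 0.023), and ndufaf5.L, an assembly factor of complex I (0.62, adjusted p = 0.0495). Without foregut BIO replicate 2, 2 members passed.

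Among lists of related genes, 19 of 124 cytosolic ribosomal protein rows rose and 1 fell in foregut BIO explants (median 0.36), and 6 of 101 mitochondrial ribosomal protein rows rose and none fell. Of all features, 1.92% rose and 4.50% fell. Of 29 glycolysis rows, 0 rose and 6 fell, among them aldolase A (aldoa.L), at 48.5 TPM with BIO against 91.6 TPM with DMSO (-0.91, adjusted p = 1.8e-04). Blood and endothelial markers summed to 47.1 to 89.7 TPM with BIO and 774 to 1068 TPM with DMSO (9 of 14 rows lower), and hindgut markers to 214 to 393 TPM with BIO and 7.64 to 37.5 TPM with DMSO (5 of 12 rows higher). Their part was not tested. In hindgut explants BIO gave 0 calls among members by limma (5 with an unadjusted p below 0.05, and 0.0277% of features passing). There ndufa3.S was at 21.7, 20.9 and 16.3 TPM with BIO against 13.3, 10.2 and 9.10 TPM with DMSO (0.80, adjusted p = 0.188), also without overlap. For no member did the BIO effect differ between hindgut and foregut by the test of that difference (0 of 133, with 0.828% of features passing).

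No member passed in the libraries labelled heat shock, with 2 libraries in each group, which does not show that levels were unchanged. Differences lay above 0 for 98 of 133 members in foregut, compared with 51.3% of all features. The same held for 102 of 133 members in hindgut, compared with 50.7% of all features. In foregut, 0 of 133 members passed against the unheated libraries, none had an unadjusted p below 0.05 by limma, and 0.0243% of features passed. In hindgut, 0 passed, 1 had an unadjusted p below 0.05, and 0.00693% of features passed. That member, picked as the smallest p of 133, was ndufa3.L, at 37.0 and 23.5 TPM in heated against 23.2 and 9.23 TPM in unheated hindgut libraries (0.95, adjusted p = 1). Libraries differed within both hindgut groups. In those numbered 23 (unheated) and 25 (heated), 1 feature held 7.11% and 7.19% of all TPM, and members summed to 10475 and 10708 TPM. In those numbered 12 (unheated) and 14 (heated), members summed to 13193 and 13980 TPM. The part of this split in the result was not tested. Hindgut markers were lower in heated than in unheated hindgut libraries, at 311 to 344 TPM against 628 to 745 TPM. The test of the difference between hindgut and foregut gave 0 members (0.0139% of features).

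Dorsal explants had higher levels of many respiratory chain genes than gut explants in DMSO. Against foregut DMSO, 61 members rose and 2 fell, while 32.3% of all features passed, 10.9% higher and 21.4% lower. Against hindgut DMSO, 60 rose and 4 fell, while 33.7% of features passed, 15.6% higher and 18.1% lower. Against foregut DMSO the median member differed by 0.54 and the median feature by -0.23, and against hindgut DMSO by 0.50 and -0.07. The dorsal libraries are the same in both comparisons.

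Within complex I, 32 of 59 rows rose and none fell against foregut DMSO, with the smallest p for ndufb4.L, an accessory subunit. It was at 66.8, 48.1 and 47.7 TPM in dorsal libraries against 28.3, 20.3 and 25.5 TPM in foregut DMSO libraries (1.10, adjusted p = 1.8e-05). Against hindgut DMSO, 34 rose and 1 fell. ndufa11.S, another accessory subunit, was at 65.8, 63.9 and 70.1 TPM in dorsal libraries against 24.0, 28.0 and 28.7 TPM in hindgut DMSO libraries (1.28, adjusted p = 1.4e-05). The row that fell was ndufs1.S, the copy of a core iron-sulfur subunit, at 12.2, 10.2 and 10.8 TPM in dorsal against 13.4, 25.5 and 19.8 TPM in hindgut DMSO libraries (-0.73, adjusted p = 0.033). It did not pass without dorsal replicate 2 or 3 (adjusted p = 0.086 and 0.077) or hindgut DMSO replicate 2 or 3 (0.18 and 0.085). None of the 7 complex I assembly factor rows passed in either comparison.

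In ATP synthase, 14 of 23 rows rose and none fell in each comparison. For atp5o.S, dorsal libraries had 96.5, 116 and 141 TPM against 54.1, 46.5 and 46.9 TPM in foregut DMSO libraries (1.23, adjusted p = 3.8e-05), with no overlap. In complex IV, 10 of 22 rows rose against foregut DMSO and 8 against hindgut DMSO, with none lower. cox5b.1.L was at 299, 253 and 295 TPM in dorsal libraries against 193, 147 and 171 TPM in foregut DMSO libraries (0.73, adjusted p = 2.1e-05). In complex III, 4 of 12 rows rose against foregut DMSO and 3 against hindgut DMSO, where uqcrfs1.S, which encodes the Rieske iron-sulfur protein, fell (-0.58, adjusted p = 0.0032).

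Of the 7 complex II rows, 0 rose and 2 fell against each gut group, namely sdhb.S and sdhd.S. Among all features, 10.9% rose and 21.4% fell against foregut DMSO, and 15.6% rose and 18.1% fell against hindgut DMSO. sdhb.S was at 71.7, 76.7 and 89.6 TPM in dorsal libraries, below every library of foregut DMSO (191 TPM or more) and hindgut DMSO (675 TPM or more). Its log2 difference was -1.32 against foregut DMSO (adjusted p = 2.4e-05) and -3.36 against hindgut DMSO (SE 0.21, adjusted p = 1.7e-12), a ratio of 0.0947. sdhd.S was at 9.70, 14.6 and 14.2 TPM in dorsal libraries against 22.4, 24.6 and 31.1 TPM in foregut DMSO libraries (-0.98, adjusted p = 7.2e-04).

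The dorsal sum over all members, 12172 TPM on average, lay within the group averages of the heat-shock and germ layer experiments. These were 11834 to 12829 TPM in the heat-shock groups, with 12255 TPM in unheated foregut and 11834 TPM in unheated hindgut. The germ layer groups averaged 10500 to 15124 TPM and the inhibitor groups 8441 to 9699 TPM. By group means of log2(TPM + 1), dorsal explants were highest for only 15 members and lowest for 3. Several single members had dorsal levels near or within those of the heat-shock and germ layer groups. cox5b.1.L, called higher against foregut DMSO, averaged 282 TPM in dorsal explants. It averaged 231 to 300 TPM in the 8 heat-shock and germ layer groups and 161 to 211 TPM in the 6 inhibitor groups. cox6a1.L averaged 302 TPM, 222 to 402 TPM and 157 to 203 TPM in the same order. atp5o.S averaged 118 TPM in dorsal explants and between 98.0 and 160 TPM in the 8 heat-shock and germ layer groups, against 46.1 to 55.4 TPM in the 6 inhibitor groups. sdhd.S averaged 12.8 TPM in dorsal explants and between 9.28 and 11.9 TPM in the heat-shock and germ layer groups, against 23.4 to 28.8 TPM in the inhibitor groups. sdhb.S averaged 79.3 TPM in dorsal explants, 113 TPM in foregut DMH1 and 117 TPM in foregut endoderm, the next lowest groups. The labels do not place the dorsal explants in an experiment, and tissue and experiment cannot be told apart here. With median-of-ratios scaling, which shifts the median of all features by 0.17, 81 members rose and 2 fell against foregut DMSO, and all features split into 4198 higher and 4001 lower in place of 3147 and 6179. Against hindgut DMSO, 51 members rose and 3 fell under that scaling, and these 54 were all among the 64 called without it.

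Muscle markers moved with the dorsal comparison, at 6500 to 6941 TPM in dorsal libraries, 143 to 515 TPM in hindgut DMSO and 11.2 to 13.97 TPM in foregut DMSO libraries, with 15 of 17 rows higher than in foregut DMSO. actc1.L, cardiac alpha actin, averaged 2561 TPM in dorsal explants and was listed at 0 in foregut DMSO libraries. Neural plate markers summed to 869 to 1458 TPM in dorsal libraries, 24.2 to 93.0 TPM in hindgut DMSO and 317 to 751 TPM in foregut DMSO libraries. Every dorsal library stood above every DMSO library in the muscle and neural plate sums. Gut endoderm markers summed to 309 to 386 TPM in dorsal libraries, 1224 to 2331 TPM in hindgut DMSO and 1990 to 2331 TPM in foregut DMSO libraries. Epidermal markers summed to 9907 to 13472 TPM in dorsal libraries, 21063 to 26241 TPM in hindgut DMSO and 19776 to 31380 TPM in foregut DMSO libraries. Lateral plate mesoderm markers summed to 44.1 to 57.0 TPM in dorsal libraries, 213 to 272 TPM in hindgut DMSO and 339 to 447 TPM in foregut DMSO libraries. Every dorsal library lay below every DMSO library in these 3 sums. The part of these markers in the result was not tested.

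**Figure D4:**
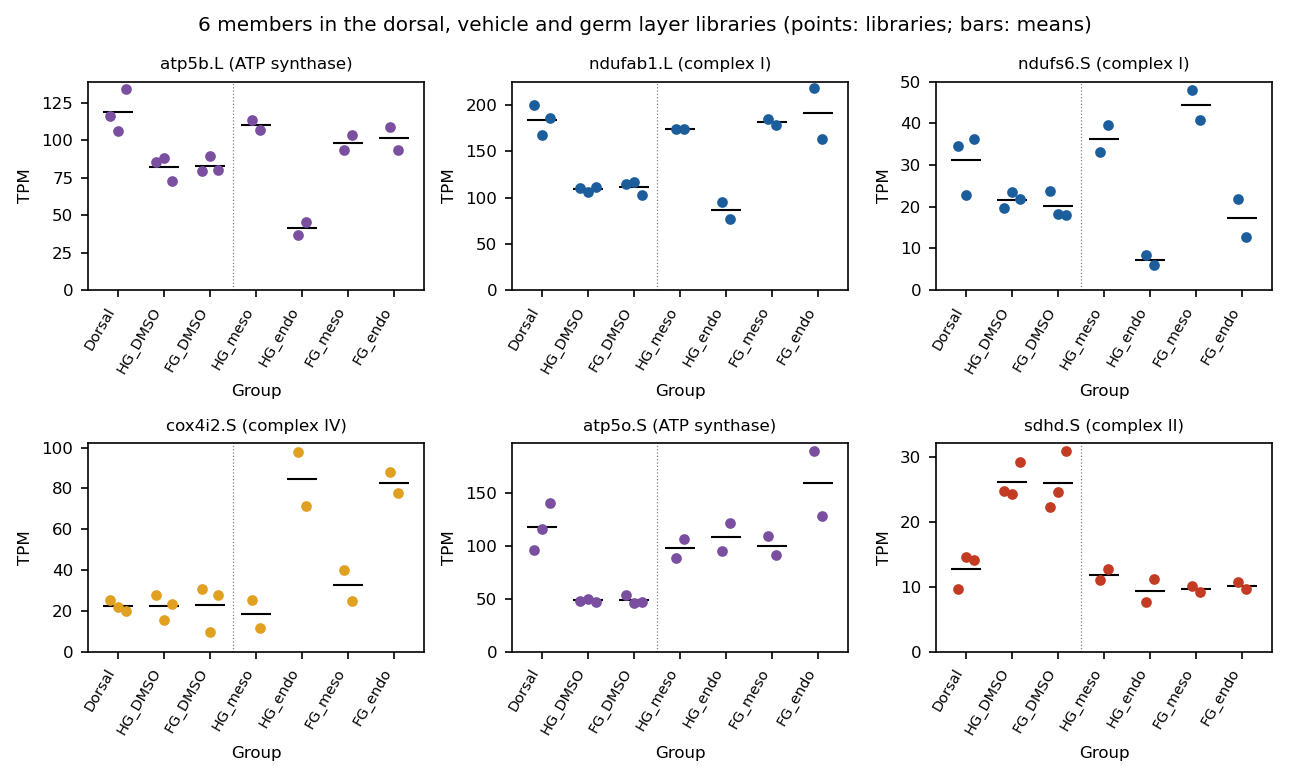
TPM (vertical axes) of 6 respiratory chain rows in each library (points, with means as bars) of 7 groups (horizontal axes). atp5o.S is lower and sdhd.S higher in both DMSO groups than elsewhere, ndufab1.L and atp5b.L are lowest in hindgut endoderm, and within each region ndufs6.S is higher in mesoderm and cox4i2.S in endoderm libraries.

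Of 124 cytosolic ribosomal protein rows, 106 rose and 8 fell against foregut DMSO (median 0.78), and 103 rose and 5 fell against hindgut DMSO. Mitochondrial ribosomal protein rows gave 32 higher and 0 lower of 101 against foregut DMSO, and 42 and 2 against hindgut DMSO. Among 35 rows for assembly factors and electron carriers, 10 rose against foregut DMSO, including the RNA-binding protein gene lrpprc.L, at 90.8 TPM in dorsal and 57.5 TPM in foregut DMSO libraries (0.65, adjusted p = 0.0064). Regulators of mitochondrial biogenesis gave 3 of 23 rows higher and 5 lower against foregut DMSO, near the shares of all features (10.9% and 21.4%). The higher rows were polg2.L (1.45), ssbp1.L (0.93) and ssbp1.S (1.08), which act in mitochondrial DNA replication. The lower ones were the transcription factor genes nrf1.S, gabpa.L, gabpa.S, gabpb1.L and esrra.L. Glycolysis rows gave 7 higher and 8 lower of 29.

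In hindgut mesoderm against hindgut endoderm, 30 members rose and 7 fell, while 33.2% of features passed (21.6% higher and 11.6% lower). The median member differed by 0.22 and the median feature by 0.11. The smallest p belonged to atp5b.L, a copy of the catalytic beta subunit, at 114 and 107 TPM in mesoderm against 37.0 and 45.8 TPM in endoderm libraries (1.40, SE 0.17, adjusted p = 2.4e-07). ndufs6.S, a complex I subunit, was at 33.1 and 39.6 TPM in mesoderm against 8.51 and 6.12 TPM in endoderm libraries (2.18, adjusted p = 5.7e-07). Neither atp5b.L nor ndufs6.S overlapped between the layers. Over all libraries atp5b.L gave 14.8% of the transcripts of its pair. The more abundant copy, atp5b.S, averaged 576 ± 55.7 TPM in hindgut mesoderm and 506 ± 70.7 TPM in hindgut endoderm libraries (SD, n = 2 each).

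Every complex held called rows, while 21.6% of all features rose and 11.6% fell. Of the members 27.8% passed, against 33.2% of all features. In complex II, 4 of 7 rows rose and none fell: sdhb.S, at 682 and 881 TPM in mesoderm against 259 and 290 TPM in endoderm libraries (1.496, adjusted p = 4.1e-05), sdhb.L, sdha.S and sdhd.L. sdhb.L was at 77.6 and 86.3 TPM in mesoderm against 21.5 and 40.0 TPM in endoderm libraries (1.45, adjusted p = 0.0034). Of the 7 complex I assembly factor rows 4 rose, led by ndufaf4.L at 136 and 155 TPM in mesoderm against 49.5 and 57.9 TPM in endoderm libraries (1.42, adjusted p = 4.3e-06). ATP synthase had 7 of 23 rows higher, complex I 10 of 59 higher and 4 lower, complex IV 3 of 22 higher and 1 lower, and complex III 1 of 12 in each direction.

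The rows that fell included the complex IV isoform gene cox4i2.S and the complex I genes ndufa7.L, ndufs4.S, ndufa6.L and ndufb7.S. cox4i2, a second form of subunit IV, was at 25.4 and 11.7 TPM for its S copy in mesoderm against 97.8 and 71.2 TPM in endoderm libraries (-2.20, adjusted p = 8.7e-04). The main form, cox4i1.L, rose, with 175 TPM on average in mesoderm and 114 TPM in endoderm libraries (0.62, adjusted p = 0.041). ndufa7.L was at 46.1 and 33.1 TPM in mesoderm against 92.5 and 87.5 TPM in endoderm libraries (-1.18, adjusted p = 0.0012). Of the others, ndufs4.S averaged 0.59 TPM in mesoderm and 5.36 TPM in endoderm libraries and did not pass without hindgut endoderm replicate 1 or hindgut mesoderm replicate 1 (adjusted p = 0.056 and 0.12). ndufa6.L did not pass without hindgut endoderm replicate 1 or hindgut mesoderm replicate 2 (0.15 and 0.11), and ndufb7.S without hindgut endoderm replicate 2 or hindgut mesoderm replicate 1 (0.19 and 0.54).

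Around the chain, 9 of 29 tricarboxylic acid cycle rows rose and 1 fell, while 21.6% of all features rose and 11.6% fell. The row that fell was idh2.S, an isocitrate dehydrogenase, with 14.1 TPM in mesoderm and 62.5 TPM in endoderm libraries (-2.09, adjusted p = 2.6e-05). The hexokinase gene hk2.S averaged 194 TPM in mesoderm and 2.10 TPM in endoderm libraries (6.0035, adjusted p = 5.5e-11), within 9 glycolysis rows that rose and 4 that fell of 29. Mitochondrial ribosomal protein rows gave 46 higher and 2 lower of 101, and cytosolic ones 68 and 1 of 124. The direction of the members depended on scaling. With median-of-ratios scaling 9 rose and 9 fell, 16 of these 18 being shared with the calls above, and the median member differed by 0.03. Without hindgut mesoderm replicate 1, 15 rose and 5 fell, and without hindgut endoderm replicate 2, 19 rose and 5 fell. Fitted to these 4 libraries alone, 12 members passed.

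In foregut mesoderm against foregut endoderm, 6 members rose and 8 fell, while 26.5% of features passed (18.0% higher and 8.50% lower). The median member differed by -0.12 and the median feature by 0.08. sdhb.S was at 303 and 370 TPM in mesoderm against 96.9 and 137 TPM in endoderm libraries (1.53, adjusted p = 3.9e-05). ndufs6.S was at 48.0 and 40.8 TPM in mesoderm against 21.8 and 12.8 TPM in endoderm libraries (1.35, adjusted p = 5.0e-04). Of 7 complex II rows, sdhb.S, sdhb.L and sdha.S rose and none fell. sdhb.L was at 48.4 and 54.8 TPM in mesoderm against 18.1 and 29.9 TPM in endoderm libraries (1.11, adjusted p = 0.028).

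The remaining rows that rose were uqcrfs1.L (0.37, adjusted p = 0.024) and atp5i.L, a small membrane subunit of ATP synthase. atp5i.L was at 38.6 and 44.7 TPM in mesoderm and at 26.4 TPM in foregut endoderm replicate 2, and was listed at 0 in replicate 1. Of the 8 rows that fell 6 were among the 59 complex I rows, while 8.50% of all features fell. These 6 were led by ndufa11.S, at 60.6 and 31.4 TPM in mesoderm against 103 and 74.0 TPM in endoderm libraries (-0.98, adjusted p = 0.0031). cox4i2.S was lower as well, at 39.9 and 25.04 TPM in mesoderm against 88.0 and 77.7 TPM in endoderm libraries (-1.36, adjusted p = 0.043). Left-out libraries ended several of these calls, with atp5i.L (adjusted p = 0.45), ndufa11.S (0.059) and sdhb.L (0.23) lost without foregut endoderm replicate 1, sdha.S (0.20) and uqcrfs1.L (0.13) without foregut endoderm replicate 2, sdha.S (0.12) and sdhb.L (0.073) without foregut mesoderm replicate 1, and uqcrfs1.L (0.16), ndufa11.S (0.20) and sdhb.L (0.14) without foregut mesoderm replicate 2. cox4i2.S did not pass without any of the 4 (adjusted p between 0.050 and 0.29). The result leaned on the foregut endoderm libraries. Without foregut endoderm replicate 1 the median member differed by 0.08, and without foregut endoderm replicate 2 by -0.37. Without either foregut mesoderm library 7 members passed, and with these 4 libraries fitted alone, 1.

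Hindgut endoderm against foregut endoderm gave 3 members higher and 32 lower, while 18.6% of features passed (10.7% higher and 7.86% lower). The median member differed by -0.50 and the median feature by 0.05. The hindgut endoderm libraries are those used against hindgut mesoderm above, and the foregut endoderm libraries those used against foregut mesoderm. ndufab1.L was at 95.7 and 77.3 TPM in hindgut against 218 and 163 TPM in foregut endoderm (-1.13, adjusted p = 2.2e-06). atp5b.L was at 37.0 and 45.8 TPM in hindgut against 109 and 93.6 TPM in foregut endoderm (-1.27, adjusted p = 4.7e-06). Neither overlapped. Marker sums of other tissues also differed between these libraries. Gut endoderm markers summed to 9488 and 9905 TPM in hindgut against 2938 and 6412 TPM in foregut endoderm, with 7 rows higher and 2 lower of 13. Neural plate markers summed to 17.2 and 19.4 TPM in hindgut against 171 and 292 TPM in foregut endoderm, with 5 of 12 rows lower. Blood and endothelial markers summed to 7.49 and 13.97 TPM in hindgut against 149 and 286 TPM in foregut endoderm, with 5 of 14 rows lower. Their part in the result was not tested.

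By class, 14 of 59 complex I rows fell, 9 of 23 ATP synthase rows, 6 of 22 complex IV rows, 2 of 7 complex I assembly factor rows and 1 of 12 complex III rows. Complex II had no lower row, and sdhb.S was among the 3 that were higher, with ndufs4.S and ndufa7.L. ndufs4.S did not pass without foregut endoderm replicate 1 or hindgut endoderm replicate 1 (adjusted p = 0.18 and 0.090), and ndufa7.L without foregut endoderm replicate 2 or hindgut endoderm replicate 1 or 2 (0.23, 0.15 and 0.096). Ribosomal protein rows fell too, 103 of 124 cytosolic and 46 of 101 mitochondrial rows, with summed cytosolic levels of 68810 and 85070 TPM in hindgut against 118478 to 178829 TPM in foregut endoderm. Of 23 biogenesis regulators 6 fell, including tfam.L, a mitochondrial transcription factor, at 13.4 TPM in hindgut and 24.2 TPM in foregut endoderm (-0.77, adjusted p = 0.015). Foregut endoderm replicate 1 carried much of the count: without it 2 members were higher and 6 lower (7 shared with the 35), with atp5b.L (-1.17) and ndufab1.L (-0.92) still lower. Without replicate 2, 3 were higher and 64 lower, and with these 4 libraries fitted alone 0 passed by limma.

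The difference between mesoderm and endoderm itself differed between hindgut and foregut for 7 members, while 8.32% of features passed that test (4.80% higher and 3.51% lower, or 1386 and 1014 features, which became 1344 and 1634 with median-of-ratios scaling). Taken with its sign, as mesoderm minus endoderm, it was higher in hindgut for atp5b.L, ndufab1.L, ndufaf4.L, atp5d.L, ndufa3.S and cox5a.S, and lower for ndufa7.L, which fell in hindgut mesoderm (-1.18) and did not pass in foregut mesoderm (0.15). In the germ layer comparisons, the summed epidermal markers given above moved with the layer in both regions, with 14 of 14 rows higher in mesoderm. Muscle markers were at 582 and 859 TPM in hindgut mesoderm against 41.1 and 42.9 TPM in hindgut endoderm, while in foregut they were at 12.5 to 16.7 TPM in mesoderm against 11.0 to 65.1 TPM in endoderm. Markers of ciliated cells were at 157 to 231 TPM in foregut mesoderm against 1.32 to 3.17 TPM in foregut endoderm. Their part in the results was not tested.

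The homeologs of a respiratory chain gene were often unequal. Over 53 pairs, the L copy was higher in every library for 18, the S copy for 14, and 21 were mixed. The mean log2 ratio of L to S had a median size of 1.18, against 0.77 for all 7104 homeolog pairs tested. In 28 pairs (52.8%) it reached 1 in size, against 39.5% of all pairs. These sizes are on the log2(TPM + 1) scale, which shrinks the ratios of low genes. The median member averaged 49.9 TPM and the median feature 5.004 TPM, and the part of level in this contrast was not tested. The most unequal on that scale was cox4i2, whose L copy gave 1.92% of the transcripts of the pair. Next on that scale came ndufa12, with 4.35% from L, ndufs4, with 96.6% from L, sdhb, with 6.94% from L, and cox6b1, with 91.5% from L. By share of transcripts ndufs4 was more unequal than ndufa12. The lower copies cox4i2.L, ndufa12.L and ndufs4.S averaged only 0.657, 2.16 and 1.09 TPM, where the added 1 weighs on the ratio. The estimation program divides reads that match both copies, so a ratio between near-identical copies is uncertain.

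The balance between copies differed among the 15 groups for 24 of 53 pairs (45.3%) by limma's F test on the log2 ratio, against 69.1% of all pairs. It moved most for sdhb. Its log2 ratio of L to S averaged -1.94 in dorsal explants and -5.54 in hindgut DMSO explants (F test adjusted p = 3.0e-09). For sdhd the group means ran between -0.29 in foregut DMH1 and 1.06 in heated hindgut libraries (adjusted p = 3.0e-06), and for atp5b between -3.58 in hindgut endoderm and -2.27 in heated hindgut libraries. atp5o and atp5a1, the alpha subunit, changed which copy was higher: the ratio of atp5a1 averaged 0.33 in dorsal and -0.39 in foregut DMSO explants (adjusted p = 1.2e-05).

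**Figure D5:**
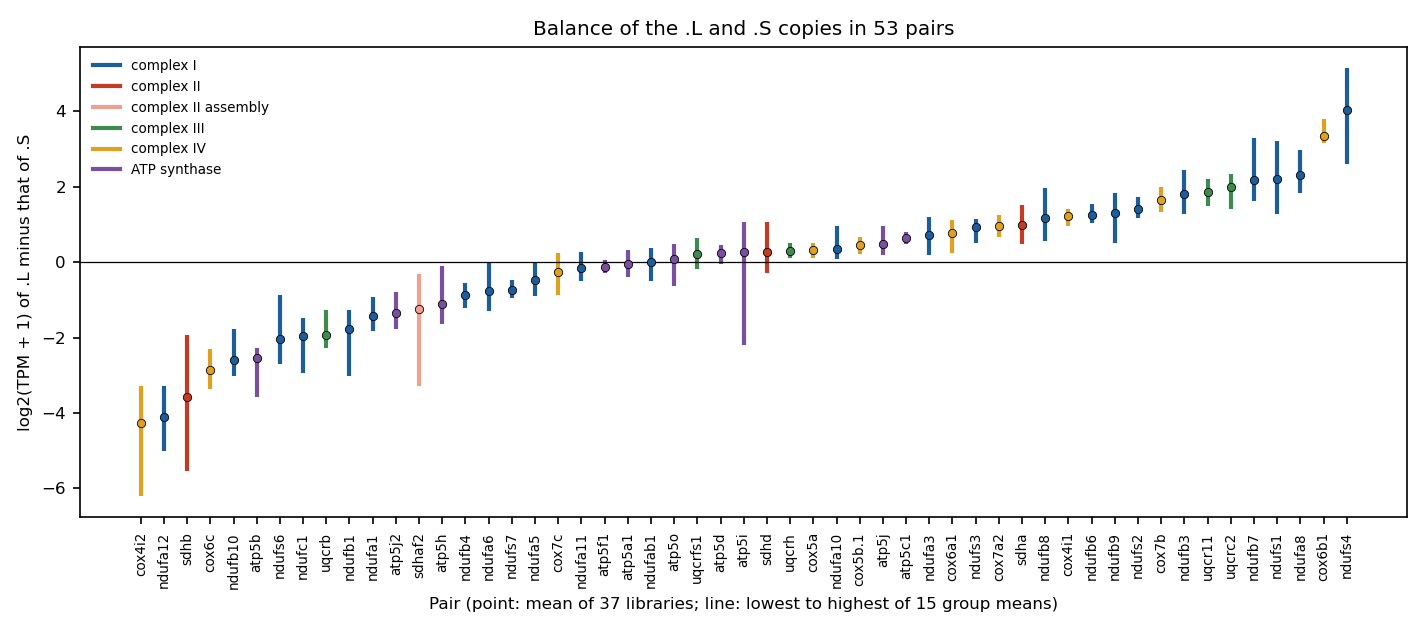
Difference of the L from the S copy on the log2(TPM + 1) scale (vertical axis) for 53 homeolog pairs (horizontal axis): points are means over 37 libraries, lines reach between the lowest and the highest of 15 group means, and colours mark the complex. Pairs run between cox4i2, with 1.92% of transcripts from L, and ndufs4, with 96.6% from L, and the line of sdhb spans -5.54 to -1.94.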

How the data were processed

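Explants were sequenced as 37 mRNA libraries, prepared with a TruSeq stranded kit per the labels. The deposited matrix holds TPM per gene model and library, made by the authors with FastQC, Trimmomatic and RSEM, per the submitters' processing notes; the genome build and aligner are not given in the sources used here. Column sums were 999208 to 999778, so TPM are shares, read depth is unknown and no counting intervals were given. A feature was kept if 2 columns or more reached 1 TPM, log2(TPM + 1) was taken, and limma 3.58.1 in R 4.3.3 (trend, 15 group means over 37 libraries, 22 residual degrees of freedom) tested 14 comparisons, 4 differences of effects and an F test, with Benjamini-Hochberg adjustment over all 28863 features and a threshold of 0.05. "Rose", "fell" and "passed" refer to that test, which does not pair libraries by replicate number. Fold changes on this scale understate low genes. The homeolog test used the log2 ratio of the copies over 7104 pairs.

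Members and gene lists were chosen with earlier results of these data known. Named members were core subunits, tissue-restricted isoforms, up to 6 called rows per direction by p and otherwise the 3 smallest p; a part is printed, and rows beyond these were chosen after their values were seen. No 2 libraries were identical; replicate correlations were 0.915 to 0.978. Same-numbered libraries deviated together in 5 inhibitor comparisons (15 pairs, correlations of residuals 0.312 to 0.557). In the 5 comparisons with 2 numbered pairs, those of foregut heat shock and the germ layers, this correlation was 0.101 to 0.502. It was highest in foregut heat shock. The main test did not use this pairing, and the replicate block did. RefSeq symbols (Xenopus_laevis_v10.1) matched 98 of 133 rows. The scripts were tested on simulated data. Alternatives tried were other pseudocounts (0.1, 5), keeping every feature or only those at 5 TPM, median-of-ratios scaling, the replicate block, summed homeologs, fits restricted to the groups in a comparison, and leaving out single libraries. The replicate block gave dorsal libraries the terms of the inhibitor libraries of the same number. Residuals of dorsal and same-numbered DMSO libraries correlated at only -0.088 to 0.072.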

Additional observations from a re-analysis of the deposited data

Results flagged for a closer look

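The difference between mesoderm and endoderm was not the same in hindgut and foregut for 7 members by limma's test of that difference (hindgut minus foregut, log2 scale), which is 5.26% of the members, while 8.32% of all features passed. For atp5b.L it differed by 1.44 (adjusted p = 2.5e-04), for ndufab1.L by 1.06 (adjusted p = 0.0010) and for ndufaf4.L by 1.35 (adjusted p = 0.0037). For ndufaf4.L the values were 136 and 155 TPM in hindgut mesoderm against 49.5 and 57.9 TPM in hindgut endoderm, and 114 and 104 TPM in foregut mesoderm against 132 and 80.8 TPM in foregut endoderm. For atp5d.L the difference was 1.17 (adjusted p = 0.011), for ndufa3.S 1.25 (adjusted p = 0.036) and for cox5a.S 0.75 (adjusted p = 0.042). For ndufa7.L it was -1.33 (adjusted p = 0.029), with 46.1 and 33.1 TPM in hindgut mesoderm against 92.5 and 87.5 TPM in hindgut endoderm, and 71.6 and 45.0 TPM in foregut mesoderm against 61.1 and 42.5 TPM in foregut endoderm.

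Foregut endoderm replicate 1 weighs on these results. Without it 4 members differed: atp5b.L (1.33), ndufab1.L (0.86), ndufaf4.L (1.00) and ndufa7.L (-1.59). Without foregut endoderm replicate 2, 27 differed, and without foregut mesoderm replicate 2, 4. atp5d.L did not pass without foregut mesoderm replicate 2 or hindgut mesoderm replicate 1 (adjusted p = 0.099 and 0.053). ndufa7.L did not pass without foregut endoderm replicate 2, foregut mesoderm replicate 1, hindgut endoderm replicate 1 or 2, or hindgut mesoderm replicate 2 (adjusted p between 0.053 and 0.19). With median-of-ratios scaling 4 passed, 3 with a higher and 1 with a lower signed difference in hindgut.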

How the results depend on the processing

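Most counts stayed within 1.5 times under other pseudocounts, filters and scaling. With the replicate block, 2 members passed in hindgut against foregut DMSO, 1 in foregut DMH1 against DMSO and 4 in foregut BIO against DMSO. It gave 53 in hindgut against foregut endoderm and 14 for the layer difference between regions, where libraries were matched by number alone. Among the named values the block ended no call. No paired analysis was run for the comparisons with heated or unheated hindgut libraries, because their columns carry numbers that match no sample title. Their unpaired test therefore kept in its spread the split of libraries 12 and 14 from libraries 23 and 25. In foregut BIO against DMSO, 2 passed with a filter of 5 TPM and 2 when the groups were fitted alone. With median-of-ratios scaling, 18 passed in hindgut mesoderm against endoderm and 4 for the layer difference. With homeologs summed, which tests fewer features, 6 passed in foregut and 20 in hindgut mesoderm against endoderm, and 64 in the F test. Fitted to the groups compared alone, with few libraries for the spread, 1 passed in foregut and 12 in hindgut mesoderm against endoderm, and 0 each for unheated hindgut against foregut, hindgut against foregut endoderm, hindgut against foregut mesoderm and the layer difference. Leaving out single libraries gave 1 to 2 in foregut BIO (2 without BIO replicate 2), 0 in unheated hindgut against foregut, 7 to 41 in foregut and 20 to 28 in hindgut mesoderm against endoderm, 8 to 67 in hindgut against foregut endoderm, 0 to 2 in hindgut against foregut mesoderm, 4 to 27 for the layer difference, 45 to 67 and 48 to 60 for dorsal against foregut and hindgut DMSO, 101 to 117 in the F test and 23 to 29 homeolog pairs. Median-of-ratios scaling shifted the median of all features by 0.13 in hindgut against foregut DMSO, -0.11 in hindgut mesoderm against endoderm and 0.17 in dorsal against foregut DMSO. Of 83 named values, 60 of them called, 76 stood on the same side of the threshold under median-of-ratios scaling and 47 with groups fitted alone. The rest were called values that lost their call, 7 under the scaling and 36 with groups fitted alone. Where the block could be fitted, 73 stood on the same side and 4 gained a call. No called value among these changed sign. Apart from these alternatives' own construction the cause was not tested. Read depth is unknown, so the precision of low members such as ndufs4.S cannot be set.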
